A study of Mus musculus with 6 samples.

Results

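The genes described here are 47 glycolysis and hypoxia-response genes, chosen by name out of the 25189 gene symbols of the deposited count table, and all 47 had a row. They fall into 5 roles. These are 4 glucose and lactate transporters, 17 glycolytic enzymes, and 5 regulators of glycolysis and of pyruvate entry into the mitochondrial cycle. The others are 8 genes of the hypoxia-inducible factor (HIF) pathway and 13 HIF targets outside glycolysis. The 6 libraries carry kidney labels from male wild-type C57BL/6 mice at day 2 after ischaemia and reperfusion (I/R), in which blood flow to the kidney is stopped and then restored. There were 3 libraries of I/R alone and 3 of I/R with chemerin-9. This short peptide copies the C-terminus of chemerin and is an agonist of its receptor. All animals of both groups had I/R, and uninjured kidney was not analysed here. The sources used here give neither age nor dose, nor whether each library came from its own animal. The p-values below therefore rest on the scatter of these libraries alone, and that scatter may be technical.

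The libraries held 11217252 to 16938301 counts. The table calls the treated columns IC while the labels name columns with the letter S, and every statement on chemerin-9 rests on reading IC as I/R with C9. Each library also has its own batch value in the labels, none shared between the groups, so batch and treatment cannot be told apart. Replicate 3 of I/R differed from the other I/R libraries: the chi-square of its counts over the degrees of freedom was 5.61 and 5.14, against 1.80 between those (1.90 to 2.17 within chemerin-9, 24.7 to 35.3 across the groups). By defining markers the kidney label was not borne out, and the libraries are called by their labels. Of 19 nephron markers, 8 had a row, and their median was 0.654 to 1.36 CPM (counts scaled to a common library size, per 1e6, with trimmed-mean, or TMM, factors) against 25.7 to 26.3 CPM over all genes tested. The summed level of these 8 was 26.2 to 26.5 CPM in I/R and 24.1 to 29.03 CPM with chemerin-9, with 0 to 2 of the 8 at 0 in a library, and Aqp1 alone held 18.2 CPM in I/R. Of 16 endothelial, leukocyte and red cell markers, 7 had a row, with a summed level of 4.98 to 7.28 and 5.40 to 7.55 CPM, and the globin gene Hbb-bs was at 0 in all 6 libraries. The 10 markers of dividing cells had a median of 220.1 to 237 CPM. The 8 mesenchymal markers with a row had no common direction. Their sum was 2524 to 2647 CPM in I/R and 2017 to 2102 CPM with chemerin-9, carried by Vim at 1366 and 853 CPM, while their median was 24.4 to 27.4 and 35.0 to 36.1 CPM. Of the 8, Vim and Col1a2 were called lower, Pdgfrb and Col3a1 higher, and Col1a1, at 771 and 800.2 CPM, was not called. The mitochondrial share of counts moved with the groups (2.81% to 2.94% and 2.56% to 2.64%), as did the share of 18S RNA (0.381% to 0.517% and 0.261% to 0.306%). Their part in the results below was not tested. In such bulk samples, fewer cells of a type and less RNA per cell cannot be told apart.

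Glycolysis splits glucose into pyruvate in the cytosol and yields ATP without oxygen, and lactate dehydrogenase then turns pyruvate into lactate so that the pathway can go on. HIF is a pair of proteins, an oxygen-regulated alpha chain (HIF1A or EPAS1) and ARNT. With oxygen present, the EGLN prolyl hydroxylases mark the alpha chain and VHL takes it to the proteasome, so HIF activity is set at the protein level more than by the RNA of Hif1a. Without oxygen, HIF binds a short DNA core, the hypoxia response element, and switches on most glycolytic genes together with targets such as Vegfa, Car9 and Egln3. In kidney the proximal tubule normally makes glucose rather than burning it, and glycolytic genes are known to rise in injured tubules.

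The core of the hypoxia response element reads ACGTG or GCGTG, and it was looked for on both strands of RefSeq promoter windows (GRCm38.p6), each with 250 bases before and 50 after a transcription start. The 5 windows below are shown because they belong to 4 members that rose (the enzymes Ldha and Pgk1, the regulator Pdk1 and the HIF pathway gene Egln3) and to the HIF target outside glycolysis that fell most. Capitals mark the cores as read on the gene's strand, so a core on the other strand appears as CACGT or CACGC, and CACGTG holds a core on both strands.
Ldha, chr7:46845554-46845853, plus strand: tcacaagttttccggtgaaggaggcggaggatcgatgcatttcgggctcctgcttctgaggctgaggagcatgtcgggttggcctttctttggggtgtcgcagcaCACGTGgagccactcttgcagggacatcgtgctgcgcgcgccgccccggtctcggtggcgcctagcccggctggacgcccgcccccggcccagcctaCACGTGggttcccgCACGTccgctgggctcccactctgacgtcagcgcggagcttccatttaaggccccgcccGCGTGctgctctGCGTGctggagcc
Pdk1, chr2:71872974-71873273, plus strand: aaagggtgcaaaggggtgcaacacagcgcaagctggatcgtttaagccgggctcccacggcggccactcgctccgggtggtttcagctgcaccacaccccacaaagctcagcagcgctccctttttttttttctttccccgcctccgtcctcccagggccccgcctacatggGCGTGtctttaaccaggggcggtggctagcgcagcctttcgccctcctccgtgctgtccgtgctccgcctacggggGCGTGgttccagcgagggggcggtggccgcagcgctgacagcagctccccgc
Egln3, chr12:54203825-54204124, minus strand: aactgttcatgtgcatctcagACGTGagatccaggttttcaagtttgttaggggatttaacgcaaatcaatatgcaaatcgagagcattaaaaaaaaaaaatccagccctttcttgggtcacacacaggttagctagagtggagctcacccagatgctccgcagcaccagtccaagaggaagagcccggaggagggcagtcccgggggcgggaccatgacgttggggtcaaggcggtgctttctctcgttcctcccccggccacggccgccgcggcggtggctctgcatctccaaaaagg
Pgk1, chrX:106186850-106187149, plus strand: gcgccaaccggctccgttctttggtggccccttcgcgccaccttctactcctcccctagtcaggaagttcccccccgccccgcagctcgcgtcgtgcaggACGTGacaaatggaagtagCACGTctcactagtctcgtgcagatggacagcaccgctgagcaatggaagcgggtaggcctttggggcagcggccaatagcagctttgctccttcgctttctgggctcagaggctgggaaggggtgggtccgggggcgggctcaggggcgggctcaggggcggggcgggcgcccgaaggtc
Car9, chr4:43506776-43507075, plus strand: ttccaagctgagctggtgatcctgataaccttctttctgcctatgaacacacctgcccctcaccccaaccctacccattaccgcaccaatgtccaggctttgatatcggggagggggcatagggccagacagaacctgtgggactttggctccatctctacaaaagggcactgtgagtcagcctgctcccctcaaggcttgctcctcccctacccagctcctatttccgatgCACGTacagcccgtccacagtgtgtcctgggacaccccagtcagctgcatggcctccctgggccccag

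Ldha and Pdk1 each have another matched window, not printed, with 2 cores for Ldha and 0 for Pdk1. The printed Ldha window held cores at 5 places, and at 2 of them the core was CACGTG, which is also the E-box read by MYC-type factors. The printed Pdk1 window held 2 cores of the GCGTG form, Pgk1 held 2 of the ACGTG form, and Egln3 and Car9 held 1 each. In the Car9 window the core lay 18 to 14 bases before the start. RefSeq windows matched 42 of the 47 members, with 60 windows in all, some of which overlap. A core was present in 46 of the 60 (76.7%), against 61.5% of the 12455 windows of all genes tested and 43.8% of all 32851 windows. The median GC content was 62.2%, 60.7% and 52.7% in these 3 sets. By role, 21 of 28 windows of glycolytic enzymes held a core, as did 10 of 13 of the other HIF targets and 6 of 8 of the HIF pathway. Windows of members that rose held a core in 21 of 25 cases, those of members that fell in 14 of 21, and those of members not called in 11 of 14. At least 2 cores were found in 15, 6 and 10 of these windows, against 29.6% of the windows of all genes tested. The median GC content also differed, at 65% in windows of members that rose, 58.3% for those that fell and 64% for those not called. The part of GC content in these core counts was not tested. The cores are matches of letters, and binding was not measured.

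Most glycolytic enzymes were higher with chemerin-9, most HIF targets outside glycolysis were lower, and the RNA of Hif1a itself differed little. Of the 47 members, 19 rose and 15 fell at a Benjamini-Hochberg adjusted p under 0.05 (edgeR's quasi-likelihood test over 14184 genes), which is 72.3% of the members against 51.7% of all genes tested. Abundant genes pass more readily: 66.2% of all tested genes with a mean of at least 25 CPM were called, and 25 of the 36 members at that level were. The number of calls therefore does not set these genes apart, and the account turns on their direction and size. Among all genes tested 25.6% rose and 26.1% fell, with a median log2 fold change of -0.0037. Of the 17 glycolytic enzymes 10 rose and 3 fell, with a median of 0.12. Of the 13 other HIF targets 2 rose and 7 fell, with a median of -0.23. The 8 HIF pathway genes split evenly, 2 higher and 2 lower, with a median of 0.017. The transporters had 2 higher and 1 lower, and the 5 regulators 3 higher and 2 lower. Without I/R replicate 3, 19 of the 47 rose and 14 fell, 10 and 3 among the enzymes and 2 and 7 among the other HIF targets. Leaving out each library in turn gave 14 to 19 members higher and 14 to 16 lower. Among the enzymes 8 to 10 of the 17 then rose and 3 fell. Among the other HIF targets 0 to 2 rose and 7 to 8 fell. The difference between the roles is given as counts and medians and was not tested. In 34 of the 47 members the 3 values of each group were fully separated from the others, against 58.5% of all genes tested. A call with a log2 fold change of at least 0.5 in size was reached by 14 of the 47, against 19.8% of all genes tested.

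**Figure D1:**
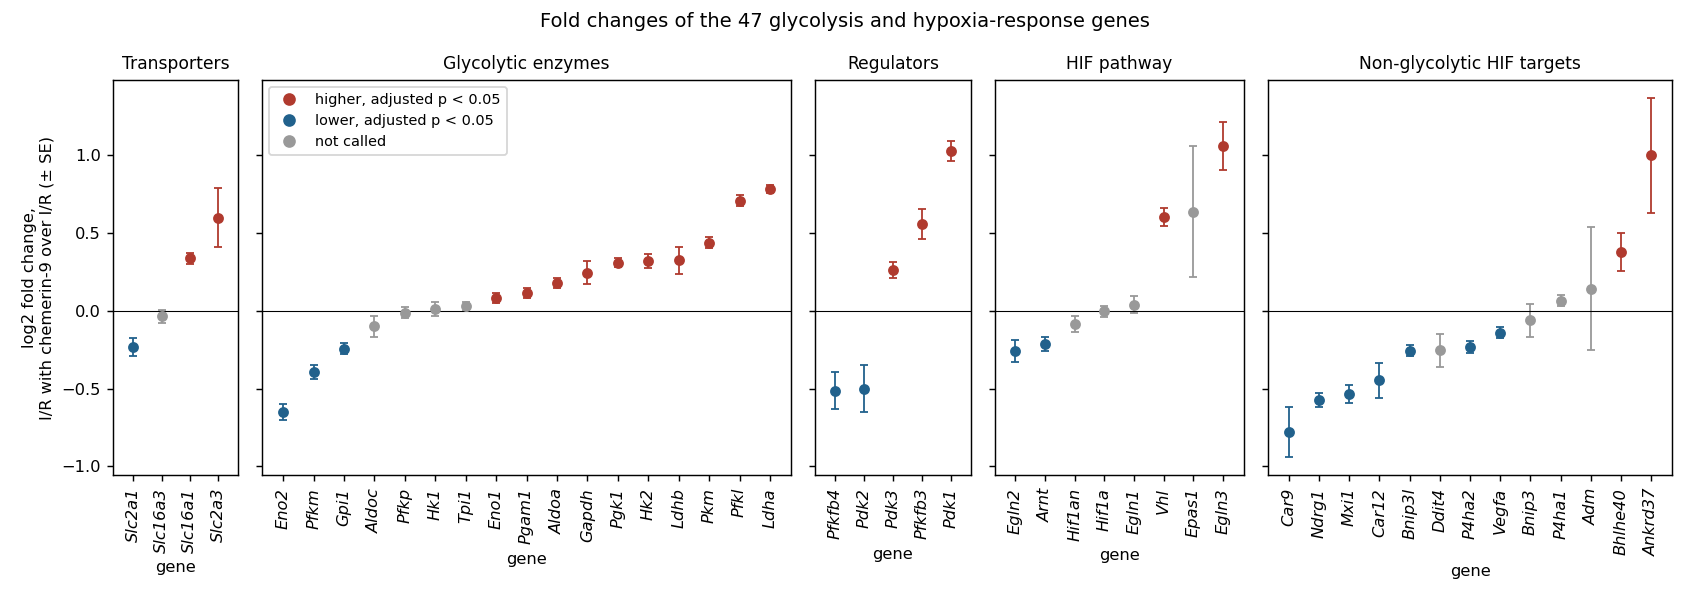
Log2 fold change of each member, I/R with chemerin-9 over I/R, with its standard error, in panels by role and ordered by value; red is higher, blue lower and grey not called at an adjusted p under 0.05. The enzymes run from -0.65 (Eno2) to 0.78 (Ldha), and 9 of the 13 other HIF targets lie below 0.

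The lactate dehydrogenase gene Ldha showed the largest rise among the enzymes. Its level was 755, 773.5 and 788 CPM in the 3 I/R libraries and 1333, 1340.4 and 1314 CPM with chemerin-9. The treated values lay far above all I/R values and close to each other. The rise was 1.72-fold (log2 fold change 0.78, standard error, SE, 0.03, edgeR adjusted p = 1.8e-11; ENSMUSG00000063229, chromosome 7, 46841475 to 46855627, GRCm38). Ldhb, the chain favouring the return of lactate to pyruvate, went from 23.5 ± 2.68 to 29.5 ± 1.36 CPM (SD, n = 3 each) and also rose, by a log2 fold change of 0.32.

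Phosphofructokinase, the committed step of the pathway, showed opposite changes in its 3 genes. Pfkl, named for liver, was at 132, 127 and 129.6 CPM in I/R and at 208, 212 and 215 CPM with chemerin-9. All treated values exceeded all others, a 1.63-fold rise (log2 fold change 0.71, SE 0.04, edgeR adjusted p = 1.4e-09; chromosome 10, 77986947 to 78010083). Pfkm, named for muscle, fell by 0.39 on the log2 scale, and Pfkp, named for platelets, did not pass (edgeR adjusted p = 0.81). Per kilobase of transcript, Pfkl made up 31.05% ± 0.585 of the family's signal in I/R and 45.6% ± 0.291 with chemerin-9. Pfkm went from 34.3% ± 0.965 to 23.5% ± 0.641 (SD, n = 3 each). The total of the 3 genes went from 112 ± 0.926 to 124 ± 2.05 CPM per kb, so the make-up of the family changed more than its sum.

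Of the 2 enolase genes among the members, Eno2 fell while the sum of the pair overlapped between the groups. Eno2, the isoform best known from neurons, was at 119.9, 114 and 117 CPM in I/R and at 77.9, 76.1 and 69.8 CPM with chemerin-9. The groups did not overlap, and the fall was 0.65 on the log2 scale (SE 0.05, edgeR adjusted p = 5.5e-08; chromosome 6, 124760053 to 124769673). Eno1, the ubiquitous isoform, had a log2 fold change of 0.083 at an adjusted p of 0.049 (edgeR), and that call ended under 10 of 18 alternative settings, while removing each library's GC content and length trend raised it to 0.18. The Eno2 share of this pair went from 15.05% ± 0.436 to 9.62% ± 0.462 per kilobase by the genes' own rows. It went from 10.1% ± 0.237 to 6.23% ± 0.232 with the near-identical copies of Eno1 added. By their own rows the pair held 279 ± 8.01 and 277 ± 5.71 CPM per kb, with overlapping values. Eno3, an enolase gene outside the 47, held 93.4 CPM per kb in I/R and 99.3 with chemerin-9. It was not called and is left out of these shares and sums.

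Of the other enzymes, Pkm, the last step, rose from 1175 ± 59.5 to 1592 ± 21.7 CPM, a log2 fold change of 0.44. The table does not separate its M1 and M2 splice forms. Pgk1, the first ATP-making step, rose from 1293 ± 37.8 to 1604 ± 12.4 CPM. Hk2, the inducible hexokinase, rose from 83.6 ± 2.74 to 104.5 ± 2.52 CPM, while Hk1, the housekeeping form, did not pass (log2 fold change 0.013). The Hk2 share of the hexokinase pair thus went from 33.5% ± 0.995 to 38.4% ± 0.742 per kilobase. Smaller rises were called for Aldoa (0.18) and Pgam1 (0.12) on the log2 scale, and Aldoa was at 0.30 once each library's trend on GC content and transcript length was removed. Gpi1, the isomerase at the second step, fell by 0.24, and Aldoc and Tpi1 did not pass (edgeR adjusted p = 0.23 and 0.49). Per kilobase, and by the genes' own rows, the highest enzyme levels in I/R were Pgk1 at 709, Tpi1 at 536, Pkm at 483 and Ldha at 437 CPM per kb. With chemerin-9 Ldha stood at 753 CPM per kb, behind Pgk1 at 879 and ahead of Pkm at 654 and Tpi1 at 547. All 17 enzymes together summed to 6592 to 6773 CPM in I/R and to 8047 to 8195 CPM with chemerin-9. This sum is of the genes' own rows, and most of its rise was carried by Ldha, at 772 and 1329 CPM, Pkm and Pgk1. With its near-identical copies added, Gapdh went from 927 CPM in I/R to 1270 CPM with chemerin-9. Of the 17, 3 fell and 4 were not called.

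**Figure D2:**
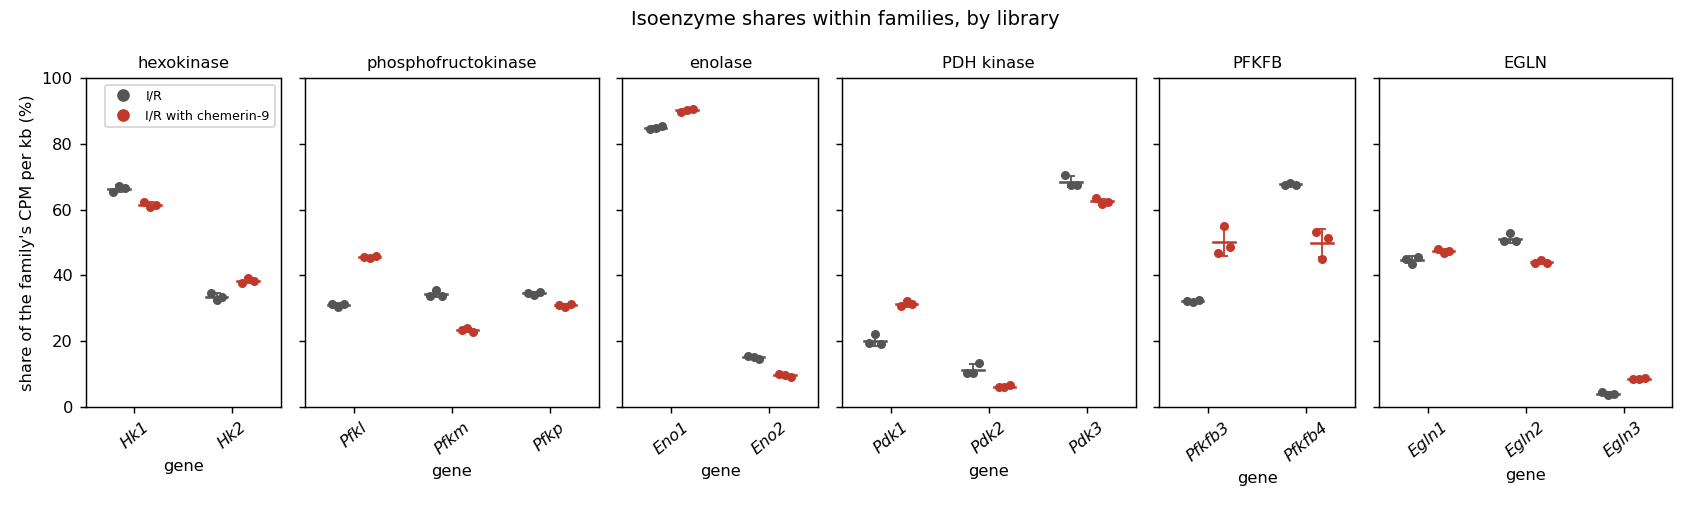
Share of each gene in the CPM per kilobase of transcript summed over the members of its family, in percent, for 6 families. Points are libraries, bars the mean and SD of 3. Eno3, Pdk4, Pfkfb1 and Pfkfb2 are not members and are left out. Pfkl, Hk2, Pdk1, Pfkfb3 and Egln3 take a larger share with chemerin-9, and Pfkm, Eno2, Pdk2, Pfkfb4 and Egln2 a smaller one, without overlap of the groups.

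Gapdh, the enzyme often used as a reference gene, had few counts in its own row beside those of its near-identical copies. Which gene the reads of the copies came from was not tested. Its own row went from 57.3 ± 6.50 to 68.0 ± 4.81 CPM, with overlapping groups (log2 fold change 0.25, edgeR adjusted p = 0.014). That call ended without I/R replicate 2 (log2 fold change 0.16) and without chemerin-9 replicate 2 or 3 (largest edgeR adjusted p = 0.082). Among GENCODE M21 transcripts, 81 other genes, 77 of them pseudogenes, matched Gapdh at 95% identity or more over at least 50% of the shorter transcript, and 51 of these had a row. The Gapdh row held 5.79% of the counts of this whole set, and a single processed pseudogene, Gm13394, held 82.9%. Gm13394 was named after its values were seen. It was at 830.1, 832 and 629 CPM in I/R and at 1075, 1073 and 1032 CPM with chemerin-9, with I/R replicate 3 the lowest. Summed over the set, the level was 999.5, 984 and 797 CPM in I/R and 1285, 1286 and 1240.1 CPM with chemerin-9, which do not overlap with or without I/R replicate 3. The sum gave a log2 fold change of 0.46 (SE 0.06, edgeR adjusted p = 1.8e-05), larger than the 0.25 of the Gapdh row. With copies added to each enzyme, this set came to 653 CPM per kb in I/R, behind Pgk1 at 711, and to 895 CPM per kb with chemerin-9, ahead of Pgk1 at 882.

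**Figure D3:**
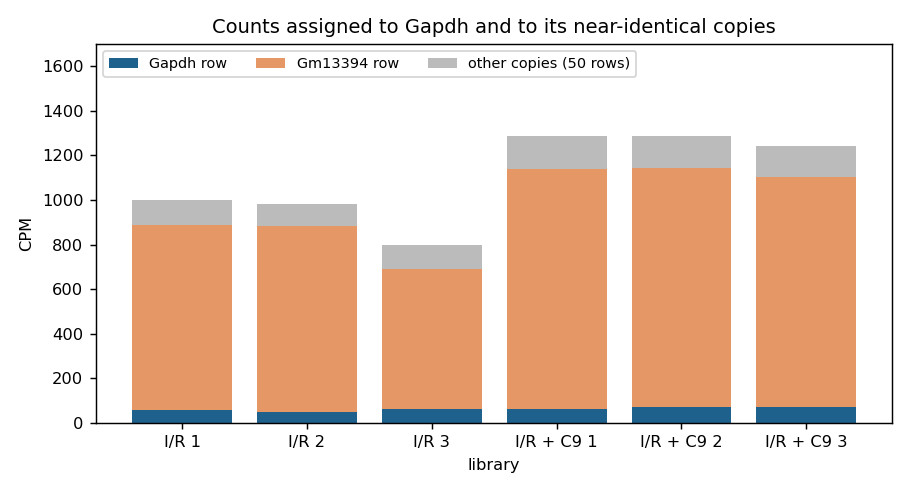
CPM per library assigned to the Gapdh row, to the pseudogene Gm13394 and to the 50 other copies with a row, stacked. The Gapdh row is the thin lowest segment, 50.4 to 71.7 CPM, under sums of 797 to 1286 CPM.

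Eno1 was the other enzyme with many counts in copies. Its 3 copies held 37.05% of the joint counts, most of them in Gm4735 and Eno1b. Summed with them, Eno1 had a log2 fold change of 0.105 (edgeR adjusted p = 0.010). In all, 13 of the 47 members had such a match, counted without regard to strand. The only match of Ndrg1 and the closest match of Bnip3 were annotated as antisense transcripts. Gpi1, Ldhb, Ndrg1 and Mxi1 had matches without a row. In the other 7, the copies held at most 3.57% of the joint counts, and reads left unassigned between gene and copy appear in no row.

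Among the transporters, the lactate carrier Slc16a1 (MCT1) rose and the main glucose carrier Slc2a1 (GLUT1) fell. Slc16a1 went from 201 ± 4.43 to 255 ± 5.57 CPM (log2 fold change 0.34, edgeR adjusted p = 1.8e-06), and its log2 fold change was 0.22 with the GC and length trend removed. Slc16a3 (MCT4), a lactate exporter that is itself a HIF target, did not pass, at 210.3 ± 9.70 and 205 ± 4.38 CPM. Slc2a1 was at 73.2, 67.2 and 77.7 CPM in I/R and at 61.3, 61.8 and 62.7 CPM with chemerin-9. Its values did not overlap and fell by 0.23 on the log2 scale (SE 0.06, edgeR adjusted p = 0.0032). Slc2a3 (GLUT3), a high-affinity glucose carrier, was scarce, at 4.31, 3.12 and 3.22 CPM and then 4.62, 5.67 and 5.67 CPM. It rose by a log2 fold change of 0.60 (SE 0.19, edgeR adjusted p = 0.017). The 2 groups came close, at 4.31 and 4.62 CPM, and the call ended without I/R replicate 2 and without chemerin-9 replicate 2 or 3. Per kilobase, Slc2a1 made up 96.1% ± 0.680 of the pair in I/R and 93.4% ± 0.658 with chemerin-9.

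All 5 regulators changed, and within each family 1 gene fell while another rose. Pdk1 encodes a kinase that shuts pyruvate dehydrogenase and so keeps pyruvate out of the mitochondrial cycle, and it is a classical HIF target. It was at 36.01, 42.9 and 38.9 CPM in I/R and at 77.8, 83.4 and 78.8 CPM with chemerin-9. The treated values lay far above the others, a 2.04-fold rise (log2 fold change 1.03, SE 0.06, edgeR adjusted p = 7.3e-09; chromosome 2, 71873224 to 71903858). Pdk3, another such kinase, rose from 54.3 ± 1.16 to 65.1 ± 0.849 CPM. Pdk2, the widely expressed kinase, was at 8.22, 8.77 and 11.6 CPM and then at 6.54, 6.63 and 7.13 CPM. Its fall of 0.50 on the log2 scale (edgeR adjusted p = 0.012) depended on I/R replicate 3, without which the log2 fold change was -0.33 (edgeR adjusted p = 0.087). Per kilobase these 3 kinase genes summed to 37.5 ± 1.51 and then 49.2 ± 0.610 CPM per kb. Pdk4, outside the members and left out of this sum, was at 2.48 and 1.69 CPM per kb.

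The PFKFB enzymes make and break fructose 2,6-bisphosphate, the main activator of phosphofructokinase, and both members are HIF targets. Pfkfb3, the form with the strongest kinase bias, was at 13.6, 11.7 and 12.9 CPM in I/R and at 18.3, 18.6 and 19.2 CPM with chemerin-9. It rose without overlap by a log2 fold change of 0.56 (SE 0.10, edgeR adjusted p = 2.2e-04). Pfkfb4 was at 21.5, 18.9 and 20.1 CPM and then at 15.7, 11.5 and 15.3 CPM, a fall of 0.51 on the log2 scale (SE 0.12, edgeR adjusted p = 0.0018). The Pfkfb3 share of this pair went from 32.2% ± 0.350 to 50.1% ± 4.31 per kilobase, while the sum of the pair overlapped between the groups. Pfkfb1, at 3.88 and 2.75 CPM per kb, and Pfkfb2, at 2.29 and 2.97, are not members and are left out of this share.

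In the HIF pathway the RNA of Hif1a was level before the GC and length trend was removed. Of its brakes, Egln3 and Vhl rose and Egln2 fell. Hif1a was at 252 ± 7.67 CPM in I/R alone and 252 ± 5.95 CPM with chemerin-9 (log2 fold change -0.0039, edgeR adjusted p = 0.94). Its log2 fold change was -0.15 (edgeR adjusted p = 7.8e-04) once each library's trend on GC content and transcript length was removed. Epas1, the alpha chain best known from endothelium and the cells that make erythropoietin, was at 0.523 to 2.17 CPM over the 6 libraries and did not pass (edgeR adjusted p = 0.22). The partner Arnt fell from 180.5 ± 4.66 to 155 ± 9.20 CPM, or by 0.21 on the log2 scale.

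Egln3, the prolyl hydroxylase that HIF itself induces, was at 4.23, 3.49 and 3.702 CPM in I/R and at 7.58, 8.401 and 7.76 CPM with chemerin-9. The groups were far apart, with a 2.08-fold rise (log2 fold change 1.06, SE 0.15, edgeR adjusted p = 4.3e-05; chromosome 12, 54178981 to 54203860). Vhl, the substrate receptor that sends hydroxylated HIF for destruction, was at 44.8, 40.6 and 43.3 CPM and then at 64.3, 67.6 and 63.4 CPM. It rose 1.52-fold (log2 fold change 0.60, SE 0.06, edgeR adjusted p = 6.4e-07; chromosome 6, 113623959 to 113631633). Egln1, the main oxygen sensor of the family, did not pass (log2 fold change 0.039), nor did Hif1an, the asparaginyl hydroxylase that blocks HIF co-activation (-0.086). With the GC and length trend removed, Hif1an was called lower. Egln2 fell by 0.26 on the log2 scale, a call that ended when the GC and length trend was removed (log2 fold change -0.12, edgeR adjusted p = 0.14). Per kilobase Egln3 remained the smallest of the 3, at 3.99% ± 0.424 and 8.54% ± 0.175 of the family.

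**Figure D4:**
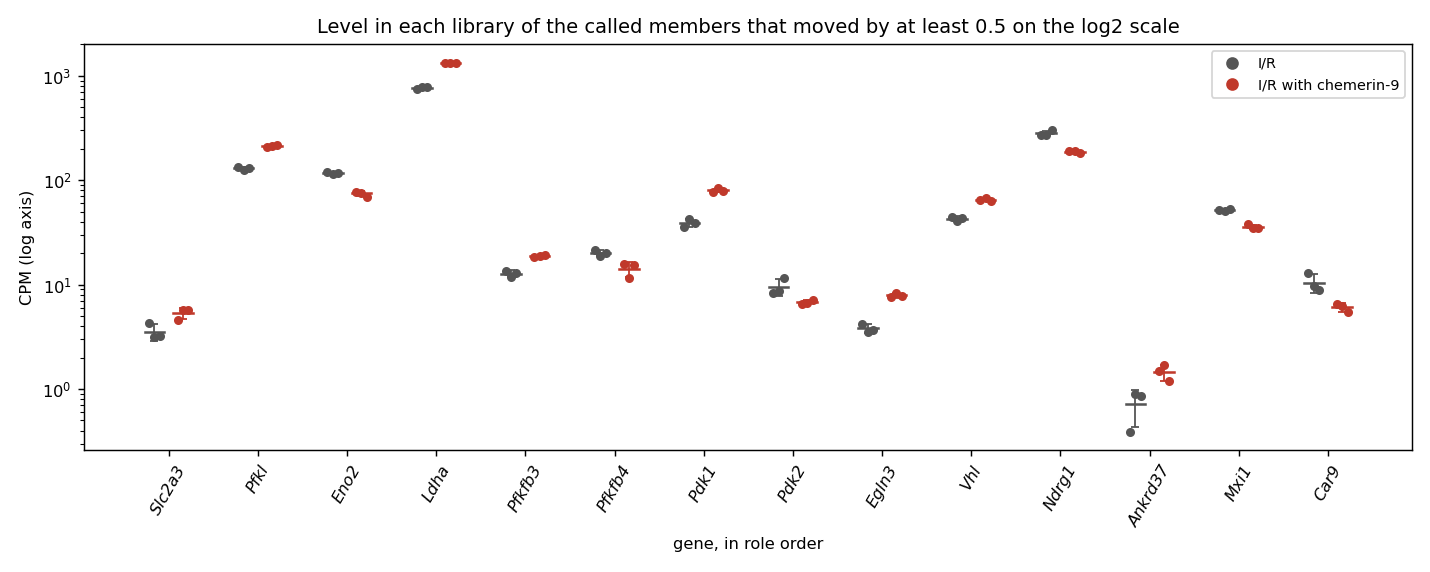
CPM in each library, on a log axis, of the 14 members that were called and moved by at least 0.5 on the log2 scale; points are libraries, bars the mean and SD of 3. The groups do not overlap in any of the 14, and the levels span 0.391 CPM (Ankrd37) to 1340.4 CPM (Ldha).

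Of the HIF targets outside glycolysis, the cell-surface carbonic anhydrases, which handle the acid made by glycolysis, were both lower. Car9, a widely used hypoxia marker, was at 12.8, 9.73 and 8.799 CPM in I/R and at 6.54, 6.19 and 5.46 CPM with chemerin-9. All treated values lay below all others, a fall of 0.78 on the log2 scale (SE 0.16, edgeR adjusted p = 8.2e-04; chromosome 4, 43506966 to 43513729). Car12 fell by 0.45 on the log2 scale. Per kilobase the pair summed to 8.61 ± 0.866 and 5.52 ± 0.125 CPM per kb, while the share of each gene overlapped between the groups.

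Ndrg1, a stress-induced gene linked to differentiation, was at 271, 269 and 301 CPM and then at 191, 192 and 182 CPM. It fell by 0.58 on the log2 scale (SE 0.05, edgeR adjusted p = 8.4e-08; chromosome 15, 66929318 to 66969640). Mxi1, an antagonist of MYC, was at 51.8, 51.3 and 52.8 CPM and then at 37.6, 35.004 and 35.2 CPM. Its values were tight within each group and fell by 0.53 on the log2 scale (SE 0.06, edgeR adjusted p = 2.9e-06). The mitophagy receptor Bnip3l fell by 0.26, while its relative Bnip3 did not pass (edgeR adjusted p = 0.65). P4ha2, a subunit of the collagen prolyl 4-hydroxylase, fell by 0.23, while P4ha1 did not pass (log2 fold change 0.064).

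Vegfa, the angiogenic growth factor, went from 344 ± 5.74 to 312 ± 8.50 CPM (log2 fold change -0.14, edgeR adjusted p = 0.0030). That call ended with the GC and length trend removed (log2 fold change 0.023, edgeR adjusted p = 0.65). Ddit4, an inhibitor of mTORC1, did not pass (log2 fold change -0.25, edgeR adjusted p = 0.056). Its I/R replicate 3 value of 59.2 CPM lay above the 41.6 and 43.5 CPM of the other I/R libraries. Adm, the vasodilator peptide adrenomedullin, was near the detection floor at 0.485 to 1.04 CPM.

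The only rises in this role were weak or scarce, with the HIF target Egln3 counted in the HIF pathway. Bhlhe40, a transcriptional repressor linked to the clock, rose from 12.7 ± 2.10 to 16.5 ± 0.958 CPM (edgeR adjusted p = 0.017). Ankrd37 was at 0.391, 0.892 and 0.8496 CPM in I/R and at 1.48, 1.69 and 1.19 CPM with chemerin-9, from 5 to 23 counts per library. Its log2 fold change was 1.00 (SE 0.37, edgeR adjusted p = 0.035). Neither rise was called without I/R replicate 1 (Bhlhe40 then had a log2 fold change of 0.25) or without chemerin-9 replicate 2. Bhlhe40 was also lost without chemerin-9 replicate 3, and Ankrd37 without chemerin-9 replicate 1 and with DESeq2.

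Genes around the pathway, listed by role, did not all move the way of the enzymes. Of 24 tested genes listed for other glycolytic steps, glycogen and sugar transport, 6 rose and 4 fell, or 41.7% against the 51.7% of all genes. The list and its counts include Pgam5 and Pgm3, which share a family name but are not enzymes of these steps. Bpgm, which makes 2,3-bisphosphoglycerate, rose from 20.7 ± 0.614 to 30.1 ± 0.490 CPM, and Pgam5 and Pgm1 rose by 0.33 and 0.25 on the log2 scale. Pygb, a glycogen phosphorylase, fell from 144 ± 2.12 to 94.7 ± 1.85 CPM, Pgm3 by 0.82 and the glycogen synthase gene Gys1 by 0.25. Of 11 pentose phosphate genes, 3 rose and 4 fell, or 63.6%. G6pdx, the entry enzyme that makes NADPH, fell from 106 ± 4.37 to 68.3 ± 3.86 CPM, Pgd by 0.42 and Tkt by 0.22. Those that rose were Tktl1, at 0.162 ± 0.0175 and 1.41 ± 0.358 CPM, Rpia and Rpe, but the number that rose was 1 under DESeq2, without a low-count filter, with the replicate block, and without any single library other than chemerin-9 replicate 3. Rpe also changed sign with the GC and length trend removed (log2 fold change -0.026).

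Of 11 genes at the gate from pyruvate to the mitochondrial cycle, 2 rose and 5 fell. These are 63.6% of the list, near the 51.7% of all genes tested and the 66.2% of abundant ones. Pdha1, the catalytic subunit of pyruvate dehydrogenase, fell from 178 ± 6.65 to 148 ± 2.43 CPM, the phosphatase gene Pdp2 by 0.49 and Pdk4 by 0.55 on the log2 scale. Pdhx and Dld, structural and shared subunits, rose by 0.37 and 0.12. Dld lost its call and its sign with the GC and length trend removed (log2 fold change -0.011, edgeR adjusted p = 0.76), and Pdk4 was not called without I/R replicate 2 or without chemerin-9 replicate 1. Without I/R replicate 2 or without chemerin-9 replicate 2, the number that fell was 3. Of the 3 tested genes of glucose synthesis, Pck2, the mitochondrial carboxykinase, fell from 662 ± 12.3 to 348 ± 5.23 CPM and Pcx by 0.44. Pck1, Fbp1, Fbp2 and G6pc were also listed but had no row under these symbols.

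Of 30 tested HIF targets beyond the 47, 8 rose and 16 fell, with a median log2 fold change of -0.22. That is 80% called, against 25.6% higher and 26.1% lower, or 51.7%, of all genes tested. Among all tested genes with a mean of at least 25 CPM, 66.2% were called. The median level of this list was 44.5 to 48.1 CPM over the libraries. The transferrin receptor gene Tfrc fell most, by 1.92 on the log2 scale, and the histone demethylase gene Kdm3a and the collagen cross-linking gene Lox fell by 0.75 and 0.42. Loxl2, of the same cross-linking family as Lox, rose by 0.89, and Stc2 and Rbpj rose by 0.75 and 0.51. Of 13 tested HIF regulators and partners, 2 rose and 3 fell, or 38.5%. Cited2, which competes with HIF for its co-activator and is itself induced by it, fell from 112 ± 5.78 to 73.3 ± 3.38 CPM, and Elob and Rbx1, of the VHL ligase, fell by 0.39 and 0.13. Senp1 and the co-activator gene Crebbp rose by 0.29 and 0.12 on the log2 scale. Cited2 and Senp1 kept their calls under all 18 alternatives. Elob was not called with DESeq2, with the robust prior or with the GC and length trend removed (log2 fold change -0.12), and was at -0.22 without I/R replicate 3. Rbx1 lost its call under 7 alternatives and Crebbp under 6. DESeq2 called 1 of these regulators higher and 1 lower, and 1 was higher without I/R replicate 2 or without chemerin-9 replicate 3.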

How the data were processed

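The deposited table holds raw counts per gene symbol, whole numbers with different totals per library, and the authors' own comparison columns, which were not used. The submitters' processing notes name HISAT2, HTSeq, DESeq 1.18.1 and the build mm10. Which annotation release and strand setting were used is not stated there, so overlapping and antisense genes are uncertain. Coordinates matched GRCm38, with the same start as GENCODE M21 for 97.5% of matched genes. Of 25216 rows, 27 were exact repeats under a symbol already listed (1 of them Aldoa) and were dropped, and 622 symbols had no count. No row stood for unassigned reads.

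The treated titles read C9 while the treatment field reads C9, C10 and C11 in turn, and the titles were followed. The quasi-likelihood test of edgeR 4.0.16 (R 4.3.3) was run on group alone, with TMM factors and the filterByExpr filter. Adjustment was by Benjamini-Hochberg over all 14184 tested genes, with a threshold of 0.05. All 47 members passed the filter. Standard errors are the log2 fold change over the square root of F. Values in CPM per kb divide by the GENCODE principal transcript length, and family shares use these, over the members only. Copies were searched with BLAST 2.17.0. The alternatives were RLE and upper quartile factors, DESeq2 1.42.0, limma-voom (limma 3.58.1), a robust prior, a stricter and no low-count filter, a block on replicate number, removal of each library's trend on GC content and length (95.3% of tested genes had a value), each library left out, and mitochondrial and haemoglobin genes left out. Summing members with their copies was added after the data were seen. The procedures were tested on simulated data.

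The members and lists were chosen with earlier results of these data known. All members are named. Those with an adjusted p under 0.05 and a log2 fold change of at least 0.5 in either direction, or called alone in their direction within a role, are given library by library. Of each surrounding list, up to 3 called genes per direction with the smallest p are named. Eno3, Pfkfb1 and Pfkfb2 were named after their values were seen, as genes of the same families left out of the shares.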

Additional observations from a re-analysis of the deposited data

How the results depend on the processing

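Over 18 alternatives, 26 of the 34 called members kept their direction and an adjusted p under 0.05 in each, and 8 did not under at least 1: Slc2a3, Eno1, Gapdh, Pdk2, Egln2, Vegfa, Bhlhe40 and Ankrd37. Another 5, Tpi1, Hif1a, Hif1an, Epas1 and Ddit4, gained a call under at least 1. Ldha stayed between 0.76 and 0.80 and Pdk1 between 0.93 and 1.09 on the log2 scale. Of 468 counts of calls compared, 440 stayed within 1.5 times. With DESeq2, 1 HIF target outside glycolysis rose, as with at least 10 counts in every library; 1 pentose phosphate gene rose, and 1 HIF regulator rose and 1 fell. The pentose phosphate number was also 1 without a low-count filter. With the GC content and length trend removed, 1 pyruvate gate gene and 1 HIF regulator rose, and Vegfa (0.023), Rpe (-0.026) and Dld (-0.011) changed sign; the cause was not tested. The matched Vegfa transcript was 654 bases.

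Leaving out 1 library at a time gave 1 to 2 transporters higher, 1 to 2 regulators lower, 0 to 2 HIF targets outside glycolysis higher, 1 to 3 pentose phosphate genes higher, 3 to 5 pyruvate gate genes lower and 1 to 3 HIF regulators higher. Of the enzymes, 8 to 10 were higher in these fits. A group left with 2 libraries shares its spread with the other. The replicate numbers are not known to pair the libraries. The deviations of same-numbered libraries had correlations of 0.121, -0.064 and 0.048. Those of differently numbered libraries ran from -0.164 to 0.129. With the replicate block 7300 genes were called against 7336, and 1 pentose phosphate gene rose in place of 3. With the block and the GC and length trend removed together, 1 pyruvate gate gene and 1 HIF regulator rose, and Vegfa was at 0.024, Rpe at -0.026 and Dld at -0.011. Depth limits Epas1, Adm and Ankrd37, which had 5 to 31 counts per library.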
